A study of Mus musculus with 4 samples.

Results

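The genes described here are 10 immediate early and heat shock genes: Fos, Fosb, Jun, Junb, Egr1, Atf3, Ier2, Hspa1a, Hspa1b and Dnajb1. They were taken by symbol from a fixed list, chosen with earlier results of these data known, and are 10 of the 32289 features in the matrices. The first 7 are called the immediate early members and the last 3 the heat shock members. RNA was measured cell by cell, as UMI (unique molecular identifier) counts from 3′ tags, in 4 libraries of mouse lung tumour cells. All 4 groups carried the same alleles, among them p53frt, Rosa-FSF-CreERT2 and Hnf4aflox, so loss of p53 depended on the Flp recombinase, which also switched on a tamoxifen-dependent Cre. Flp was delivered by adenovirus under the surfactant protein C promoter (mSPC-FlpO), which is active in alveolar type II cells. Tamoxifen or vehicle was injected 10 weeks later and tumours were taken 2 weeks after the injection. For the vehicle the labels give both ethanol and corn oil. A portion of each suspension was frozen before depletion, and the rest was frozen after CD45- and CD31-positive cells, the blood-derived and endothelial cells, had been removed on magnetic columns. All portions were later thawed and sorted for live cells with DAPI. The 4 groups (vehicle before, vehicle after, tamoxifen before and tamoxifen after depletion) held 1 library each, and values below are given in that order. The labels do not give the number of animals or tumours pooled.

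Immediate early genes are transcribed within minutes of a stimulus, from factors already present in the cell, and their short-lived transcripts decay soon after it ends. Fos, Fosb, Jun and Junb encode subunits of the AP-1 transcription factor, Egr1 a zinc finger transcription factor, Atf3 a stress-induced transcription factor of the ATF/CREB family, and Ier2 a nuclear protein of the same early response. Hspa1a and Hspa1b encode the inducible Hsp70 chaperone, which is switched on by the heat shock factor Hsf1 when proteins misfold, and Dnajb1 encodes an Hsp40 cochaperone that stimulates Hsp70. Enzymatic dissociation, handling, freezing and sorting of tissue are known to raise both groups of transcripts, which are therefore often used to gauge handling in single-cell data. AP-1 and Egr1 are also targets of growth factor signalling, so their level in a cell has more than one known source.

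All 10 members matched the GENCODE M21 annotation (GRCm38) and are protein coding. Fos (ENSMUSG00000021250) lies at chr12:85473890-85477273 on the plus strand and Fosb (ENSMUSG00000003545) at chr7:19302696-19310051 on the minus strand. Jun (ENSMUSG00000052684) is a single-exon gene at chr4:95049034-95052222 on the minus strand. Atf3 (ENSMUSG00000026628) lies at chr1:191170296-191218039 on the minus strand, and Egr1 is ENSMUSG00000038418. Chromosome 8 carries 3 members: Dnajb1 (ENSMUSG00000005483) at chr8:83608193-83612653 on the plus strand, the single-exon gene Ier2 (ENSMUSG00000053560) at chr8:84661331-84662852 and Junb (ENSMUSG00000052837) at chr8:84974484-84978718, both on the minus strand. Ier2 and Junb are 311631 bases apart. Hspa1b (ENSMUSG00000090877) at chr17:34956436-34959238 and Hspa1a (ENSMUSG00000091971) at chr17:34969190-34972156 are neighbouring single-exon genes on the minus strand with a gap of 9951 bases.

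The 250 bases before the start are shown for both Hsp70 genes, because these near-identical promoters belong to genes whose levels differed in pattern below, and for Jun, the other member with the same motif. They come from RefSeq (GRCm38.p6), which had a promoter for 8 of the 10 members, and capitals mark the motif GAANNTTC, which is made of facing units of the heat shock element.
Hspa1a, chr17:34972157-34972406, minus strand: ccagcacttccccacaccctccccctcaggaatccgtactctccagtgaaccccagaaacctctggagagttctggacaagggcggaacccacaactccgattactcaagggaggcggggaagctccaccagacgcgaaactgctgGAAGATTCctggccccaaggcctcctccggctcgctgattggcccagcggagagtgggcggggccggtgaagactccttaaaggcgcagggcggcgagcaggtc
Hspa1b, chr17:34959239-34959488, minus strand: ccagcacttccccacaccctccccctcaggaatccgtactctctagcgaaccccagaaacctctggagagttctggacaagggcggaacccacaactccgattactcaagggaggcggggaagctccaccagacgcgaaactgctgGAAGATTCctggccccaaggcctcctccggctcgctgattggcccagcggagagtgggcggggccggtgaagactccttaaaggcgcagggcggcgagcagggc
Jun, chr4:95052223-95052472, minus strand: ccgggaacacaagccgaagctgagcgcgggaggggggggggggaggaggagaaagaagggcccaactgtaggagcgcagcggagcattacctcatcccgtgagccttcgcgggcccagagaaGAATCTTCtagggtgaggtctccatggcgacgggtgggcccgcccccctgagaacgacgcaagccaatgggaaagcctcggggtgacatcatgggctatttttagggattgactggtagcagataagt
The Hspa1a and Hspa1b windows were identical at 247 of 250 positions. Counted from 1 at the 5′ end, with the Hspa1a base first, they differed by C44T, T47C and T249G. In both, GAAGATTC began 104 bases before the start, and in Jun GAATCTTC began 128 bases before it. GAANNTTC was found in these 3 of 8 member windows and in 6.69% of 32851 promoter windows of the same length. Egr1 and Ier2 had no window, and sites more than 250 bases before the start were not searched. Searches on both strands for the CArG box bound by serum response factor (1.47% of all windows), for TGACGTCA (1.55%), for TGANTCA (6.75%) and for a heat shock element of 3 units (0.466%, all of them also GAANNTTC matches) found no match in the 8 member windows. The coding parts of Hspa1a and Hspa1b (1926 and 1929 bases) were 99.4% identical after alignment, whereas their 3′ untranslated parts (810 and 643 bases) were 51.1% identical. Reads from the coding part that span none of the few differing positions can therefore not be assigned to 1 of them, and how such reads were counted is not given in the sources used here, so the split between Hspa1a and Hspa1b is uncertain.

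Of 7658, 7284, 6558 and 7867 barcodes, 7079, 6923, 6111 and 7358 were kept as cells. Pairs of libraries shared between 10 and 18 barcodes. Clusters were named from fixed marker genes, and the clustering was run without the members and the other stress genes. Epithelial-like cells numbered 1056, 6428, 1078 and 7005, which was 14.9%, 92.8%, 17.6% and 95.2% of the kept cells. In this class Epcam stood between 655 and 783 CPM (counts per 1000000 UMIs of the class) and the surfactant gene Sftpc between 60843 and 69923 CPM. It was not divided into tumour and other epithelial cells. Hnf4a, the gene that tamoxifen was meant to delete, was at 55.7, 54.4, 86.6 and 82.8 CPM in epithelial-like cells. It was thus not lower in the tamoxifen libraries. The labels do not say which exons are flanked by loxP sites, so 3′ tags may not reach the deleted part. Directions between treatments are therefore given for the libraries as labelled. With 1 library per group no test was run, and every interval is a 95% interval for counting error only.

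Immediate early transcripts were found in every class of cell before depletion, and were highest in stromal, neutrophil-like and epithelial-like cells. The 7 members together reached 11035 CPM in fibroblast-like cells of the vehicle library and 12582 CPM in those of the tamoxifen library. Neutrophil-like cells followed at 10651 and 10754 CPM, of which Junb alone made up 5444 and 5584 CPM. Endothelial-like cells stood at 9424 and 10172 CPM, and epithelial-like cells at 8499 and 9551 CPM. Macrophage-like cells held 7032 and 7035 CPM. In both libraries the intervals of these 5 classes did not overlap. The lowest sums were 1650 CPM in plasma cell-like cells (50 or more cells in the vehicle library only), 2475 and 3121 CPM in dendritic cell-like cells, 3201 and 4092 CPM in T cell-like cells and 3354 and 4142 CPM in B cell-like cells. The intervals of B cell-like and T cell-like cells overlapped in the tamoxifen library.

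**Figure D1:**
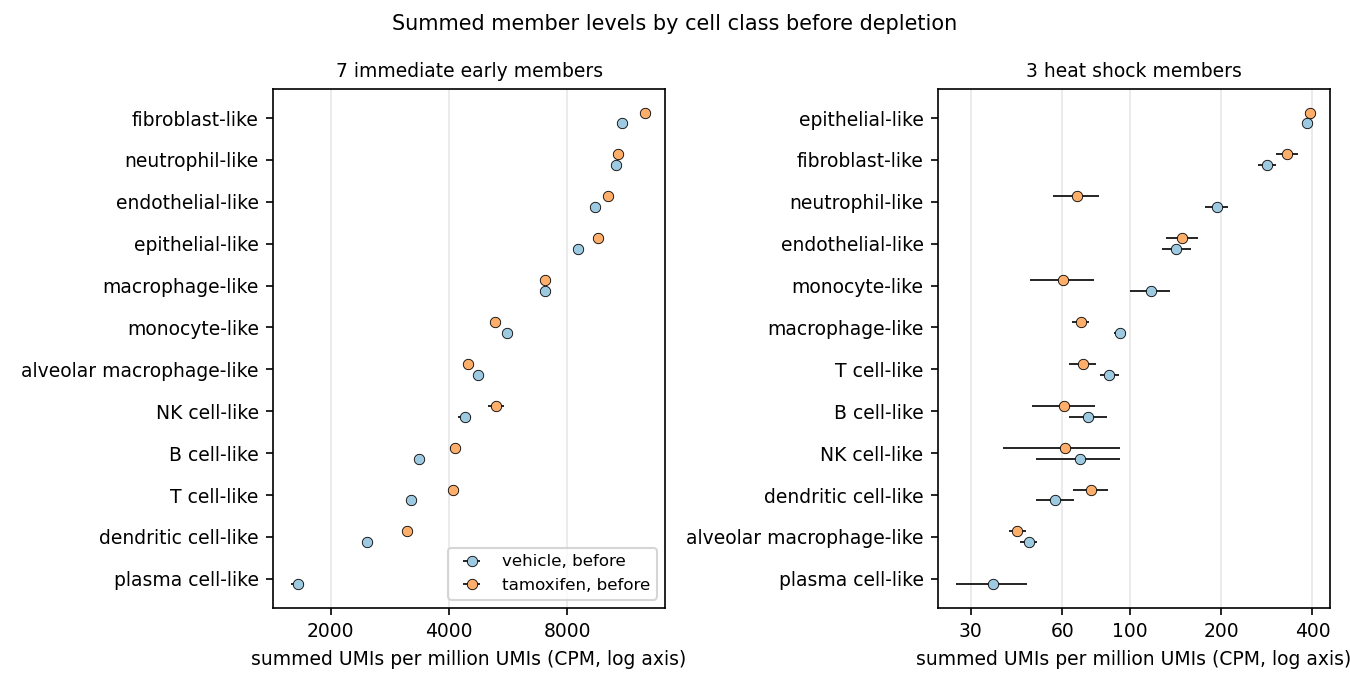
Summed CPM (log axes) of the 7 immediate early members (left) and the 3 heat shock members (right) in each class with at least 50 cells, for the vehicle and tamoxifen libraries before depletion; bars are exact Poisson 95% intervals for counting error. Epithelial-like cells had the highest heat shock sums (385 and 392 CPM), and fibroblast-like cells the highest immediate early sums (11035 and 12582 CPM).

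The single members did not share 1 order of classes. Fos stood at 2475 and 2903 CPM in fibroblast-like cells, 2099 and 2424 CPM in epithelial-like cells and 2083 and 2081 CPM in endothelial-like cells. It was lowest in NK cell-like cells, at 211 and 231 CPM. Fosb and Egr1 were also highest in fibroblast-like cells, at 1654 and 1608 CPM for Fosb and at 1298 and 1541 CPM for Egr1. Egr1 was low in dendritic cell-like cells (77.4 and 108 CPM) and NK cell-like cells (85.5 and 69.7 CPM). Jun was highest in fibroblast-like cells (1642 and 1925 CPM) and low in B cell-like cells (150 and 315 CPM) and alveolar macrophage-like cells (254 and 249 CPM). Atf3 was close in epithelial-like (726 and 718 CPM) and endothelial-like cells (684 and 738 CPM), and low in T cell-like cells (42.3 and 84.9 CPM). Junb had another order: neutrophil-like cells held 5444 and 5584 CPM, NK cell-like cells 2741 and 3350 CPM, and epithelial-like cells 1172 and 1420 CPM. Ier2 was likewise well above its lowest class in NK cell-like cells, at 876 and 1062 CPM, beside 849 and 1058 CPM in epithelial-like cells. T cell-like, B cell-like and NK cell-like cells thus held less Fos, Fosb, Jun, Egr1 and Atf3 than epithelial-like cells in both libraries, but more Junb.

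After each cell was thinned to 2000 UMIs, Fos was seen in 82.6% of epithelial-like cells in both libraries before depletion, against 25.2% and 31.8% of T cell-like cells. Junb was seen in 77.6% and 78.9% of epithelial-like and in 91.0% and 90.7% of T cell-like cells. Atf3 was seen in 56.2% and 55.0% of epithelial-like cells and in 5.59% and 6.23% of T cell-like cells. Without thinning, Fos was seen in 95.1% and 93.8% of the epithelial-like cells, whose median depth was 24666 and 28788 UMIs.

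The heat shock sum was highest in epithelial-like and fibroblast-like cells. The 3 members together stood at 385 and 392 CPM in epithelial-like cells and at 283 and 329 CPM in fibroblast-like cells before depletion, and the intervals of these classes did not overlap in either library. Neutrophil-like cells held 194 and 67.0 CPM, and endothelial-like cells 143 and 149 CPM. Alveolar macrophage-like cells were low at 46.5 and 42.7 CPM, although their Fos (1138 and 1098 CPM) and Fosb (840 and 726 CPM) were not. Hspa1a was at 103 and 136 CPM in epithelial-like cells, 106 and 163 CPM in fibroblast-like cells, and 9.37 and 5.21 CPM in T cell-like cells. Hspa1b was at 90.4 and 93.1 CPM in epithelial-like cells, but at only 20.6 and 33.4 CPM in fibroblast-like cells. In neutrophil-like cells it was at 74.1 and 2.05 CPM, where few cells held much of the vehicle value, as given below. As counted, the neighbouring genes thus had different class patterns, but the split of reads between them is uncertain, as stated above. In thinned epithelial-like cells Hspa1a was seen in 12.1% and 13.6% of cells, against 0.488% and 0.526% of B cell-like cells. Dnajb1 was less uneven, at 191 and 163 CPM in epithelial-like cells and 64.4 and 59.2 CPM in T cell-like cells.

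Depletion changed which cells a library held, and with it the level of most members over all cells. Over all cells Hspa1a went from 51.2 to 155 CPM in vehicle and from 63.5 to 112 CPM in tamoxifen, log2 ratios of 1.58 and 0.81 (here and below with a pseudocount of 1 CPM). Jun went from 749 to 1755 CPM and from 936 to 1875 CPM, a log2 ratio of 1.23 in vehicle. Junb alone among the 10 was lower after depletion over all cells, at 1820 and 1295 CPM in vehicle and at 1814 and 1610 CPM in tamoxifen. A reference level was computed by giving each class its level before depletion and its share of UMIs after depletion. For Hspa1a these class shares alone gave log2 ratios of 0.96 and 1.06, for Jun 0.85 and 0.78, and for Junb -0.59 and -0.33. The immediate early sum went from 6609 to 9621 CPM and from 7165 to 10783 CPM, log2 ratios of 0.54 and 0.59, of which the class shares alone gave 0.36 and 0.40.

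**Figure D2:**
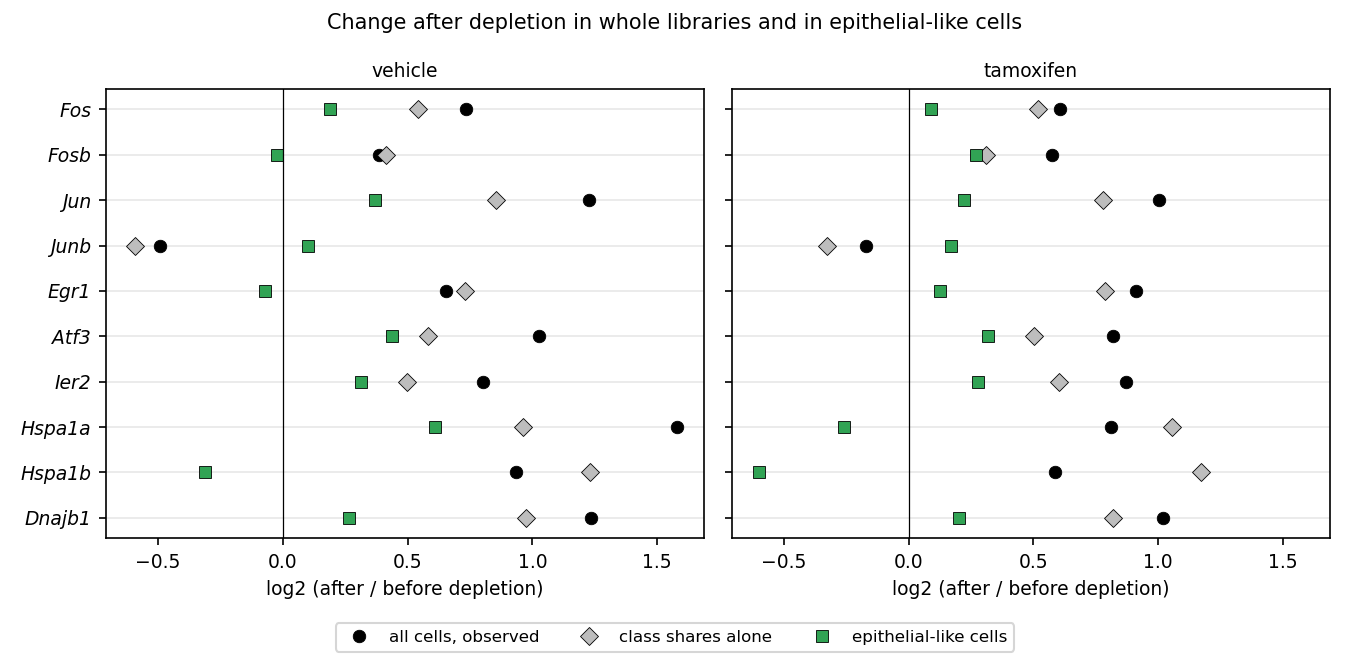
Log2 ratio after over before depletion of each member in vehicle (left) and tamoxifen (right): over all cells, with class shares alone changed, and within epithelial-like cells. Over all cells Hspa1a was at 1.58 in vehicle, with 0.96 from class shares alone and 0.61 within epithelial-like cells.

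Within epithelial-like cells the summed immediate early level was slightly higher after depletion, and no member was 2-fold apart. After over before depletion 5 of 7 immediate early members had a positive ratio in vehicle and 7 of 7 in tamoxifen. The size rule asked for at least 10 CPM in either library and a 2-fold difference. It was met by 0 of 10 members in vehicle, where 0.596% of 9227 genes met it, and by 0 of 10 in tamoxifen, where 0.57% of 9128 genes did. The immediate early sum was 8499 CPM before and 9672 CPM after depletion in vehicle, and 9551 and 10882 CPM in tamoxifen. Both log2 ratios were 0.19, with intervals of 0.18 to 0.19 in each. The median ratio of all genes considered was -0.09 in vehicle and -0.03 in tamoxifen. Scaling by TMM or median-of-ratios factors put the vehicle centre at -0.11, so a ratio near 0 in vehicle lies above that centre.

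Atf3, Jun and Ier2 led the immediate early members in vehicle and were also higher after depletion in tamoxifen. Atf3 was at 726, 984, 718 and 894 CPM, log2 ratios after over before of 0.44 in vehicle and 0.32 in tamoxifen. It was higher after depletion in both treatments, and the intervals of the levels did not overlap. Jun was at 1367, 1768, 1623 and 1893 CPM, with ratios of 0.37 and 0.22. Ier2 was at 849, 1054, 1058 and 1284 CPM, with ratios of 0.31 and 0.28. For each of these genes both libraries after depletion stood above the library before depletion of the same treatment. Fos was at 2099, 2394, 2424 and 2578 CPM, with smaller ratios of 0.19 and 0.09. Junb was at 1172, 1257, 1420 and 1598 CPM, with ratios of 0.10 and 0.17. Fos, Junb, Jun and Ier2 all stood lowest in vehicle before and highest in tamoxifen after depletion, so their levels differed by treatment as well as by depletion.

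Fosb and Egr1 did not share this direction in vehicle. Fosb was at 1198, 1178, 1006 and 1213 CPM, and its ratio was -0.02 in vehicle and 0.27 in tamoxifen. Egr1 was at 1088, 1036, 1302 and 1421 CPM, and its ratio was -0.07 in vehicle and 0.13 in tamoxifen. Both vehicle ratios became positive with TMM or median-of-ratios factors. At equal depth per cell the shares moved the same way as the levels for Atf3, which was seen in 56.2%, 66.7%, 55.0% and 65.6% of thinned epithelial-like cells. For Fosb and Egr1 in vehicle they did not: the shares of thinned cells with these genes were higher after depletion. The mean UMIs per thinned cell in vehicle rose for Fosb, from 2.475 before to 2.510 after depletion. For Egr1 this mean was lower after depletion, as its level was.

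**Figure D3:**
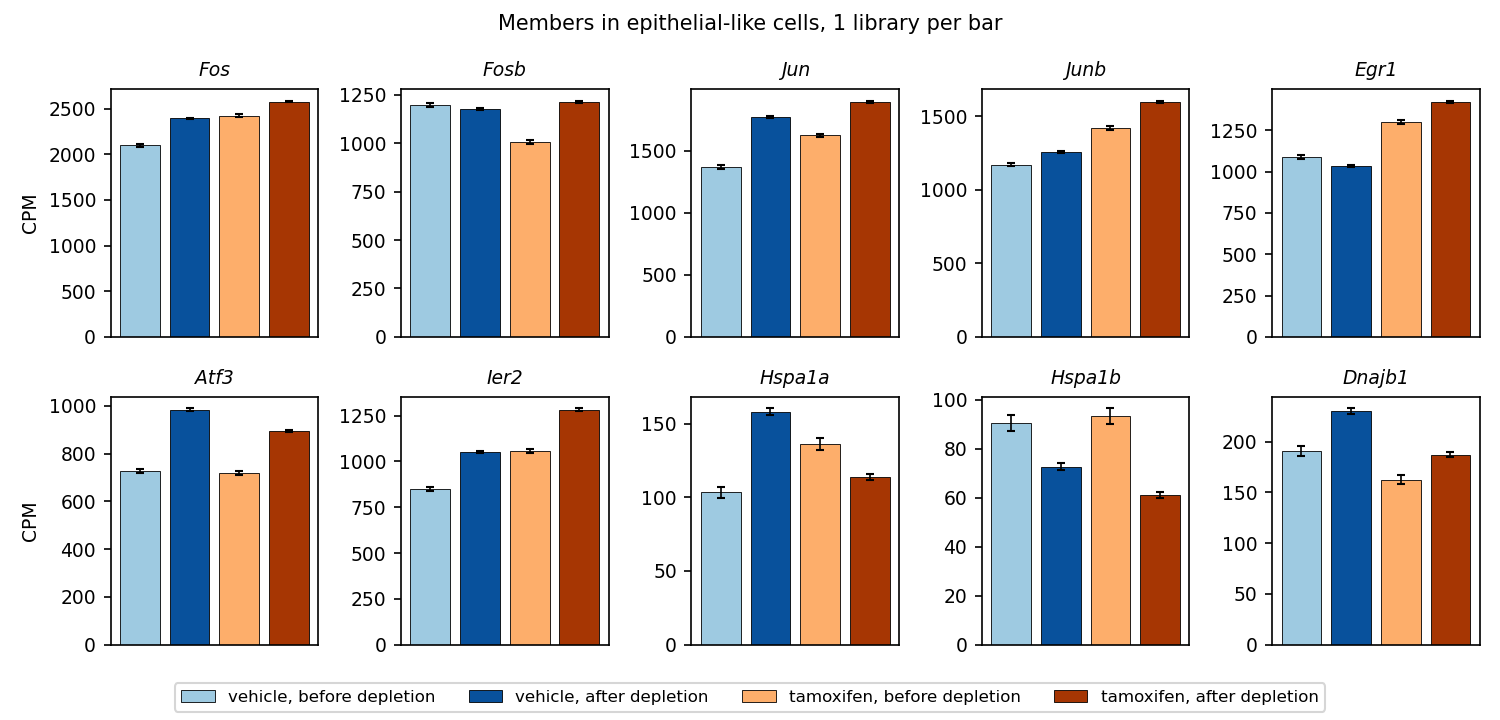
CPM of each member in epithelial-like cells, 1 bar per library (axes start at 0, scales differ between genes), with exact Poisson 95% intervals for counting error. Fos, Jun, Junb, Atf3, Ier2 and Dnajb1 stood higher after than before depletion in both treatments, and Hspa1b lower.

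The 3 heat shock members did not move together after depletion. Hspa1a was at 103, 158, 136 and 114 CPM in epithelial-like cells, so it was higher after depletion in vehicle and lower in tamoxifen. Its log2 ratios were 0.61 (0.56 to 0.67) and -0.26 (-0.31 to -0.21). Hspa1b was at 90.4, 72.6, 93.1 and 61.0 CPM and was lower after depletion in both treatments, with log2 ratios of -0.31 and -0.60. Dnajb1 was at 191, 230, 163 and 187 CPM and was higher in both, with log2 ratios of 0.27 and 0.20. The heat shock sum was 385, 461, 392 and 362 CPM.

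A few cells held much of these UMIs. In the tamoxifen library before depletion, 31 of 1078 epithelial-like cells held 50% of the Hspa1a UMIs, and the 3 highest cells held 420, 387 and 290 of 4681. In the vehicle library after depletion the 3 highest of 6428 cells held 716, 678 and 672 of 21056. Without the 3 highest cells of each library, the Hspa1a ratio after over before depletion was 0.57 in vehicle and 0.05 in tamoxifen. The lower level in tamoxifen was thus not kept without them. In tamoxifen, however, 3 cells are a larger share of the 1078 cells before than of the 7005 after depletion, and equal shares were not left out. The Hspa1b ratios were then -0.31 and -0.32, and those of Dnajb1 0.32 and 0.27. When each cell counted equally, in a mean of CPM over cells, Hspa1a was 2-fold apart in vehicle (log2 1.24) and the Hspa1b ratio there turned to 0.22. By contrast, 50% of the Fos UMIs took 16.0%, 19.0%, 18.4% and 21.1% of epithelial-like cells, where 50% of the Hspa1a UMIs took 4.83%, 4.82%, 2.88% and 5.32%.

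**Figure D4:**
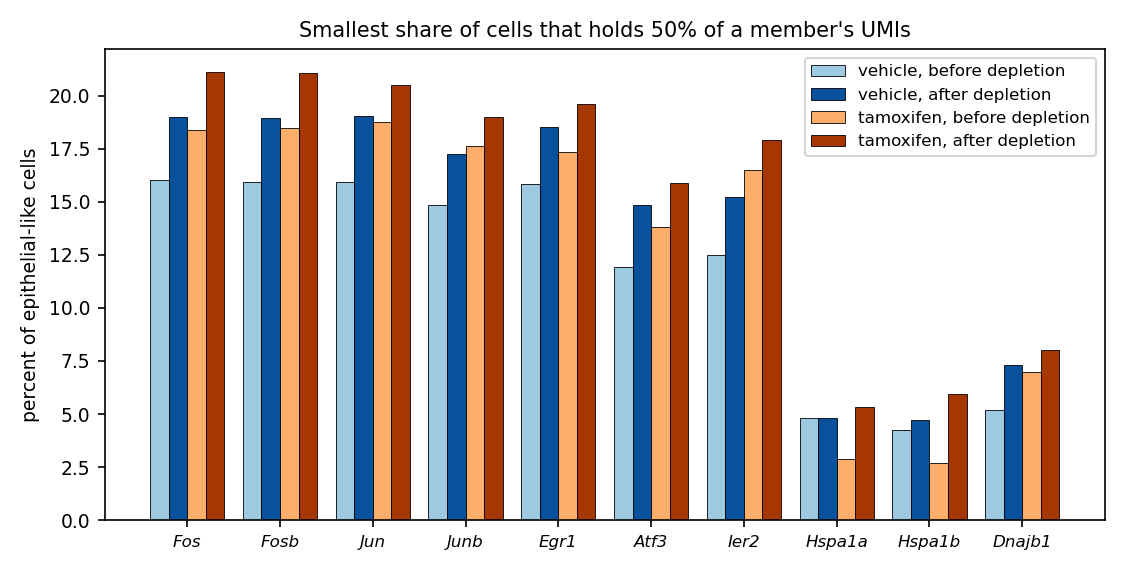
Smallest share of epithelial-like cells (percent, axis from 0) that holds 50% of the UMIs of each member, 1 bar per library. The 7 immediate early members took 11.9% to 21.1% of cells and the 3 heat shock members 2.69% to 8.01%.

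The 1% of epithelial-like cells with the highest heat shock sum were examined for the immediate early members. These 11, 64, 11 and 70 cells had immediate early sums of 11893, 15623, 16552 and 17529 CPM, against 8463, 9610, 9445 and 10815 CPM in the other epithelial-like cells. Their median depths were 26177, 18110, 37177 and 17096 UMIs, beside 24666, 18142, 28788 and 16741 UMIs over the class. The cells chosen for heat shock transcripts thus also held more immediate early transcripts in each library. Over thinned cells, Hspa1a and Hspa1b were seen together 3.06, 2.38, 2.93 and 2.29 times as often as independent detection would give. Hspa1a and Dnajb1 lay between 1.36 and 1.53 on this measure, and Hspa1b and Dnajb1 between 1.18 and 1.70. For the 21 pairs of immediate early members it lay between 1.05 and 1.23 over the 4 libraries. Genes seen in most cells, as many of these were, cannot reach a high ratio, so the ratios of the 2 gene groups are not comparable. For pairs of 1 immediate early and 1 heat shock member its median was 1.14, 1.07, 1.11 and 1.06. These ratios and the choice of the 1% were taken over all epithelial-like clusters together. The clusters differed in level, and the part of this in both results was not tested.

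Within epithelial-like clusters the shift of the immediate early sum had 1 direction. The log2 ratio after over before depletion was positive in 6 of 6 clusters with at least 50 cells on both sides in vehicle (0.09 to 0.37) and in 8 of 8 in tamoxifen (0.08 to 0.56). Clusters of 1 library share that library and are not replicates. Jun, Atf3 and Ier2 were positive in every one of these clusters in both treatments. Hspa1a was positive in 6 of 6 clusters in vehicle but in 4 of 8 in tamoxifen, where it ranged from -0.83 to 0.74. Hspa1b was negative in 5 of 6 and in 5 of 8. Dnajb1 was positive in 5 of 6 and in 7 of 8.

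**Figure D5:**
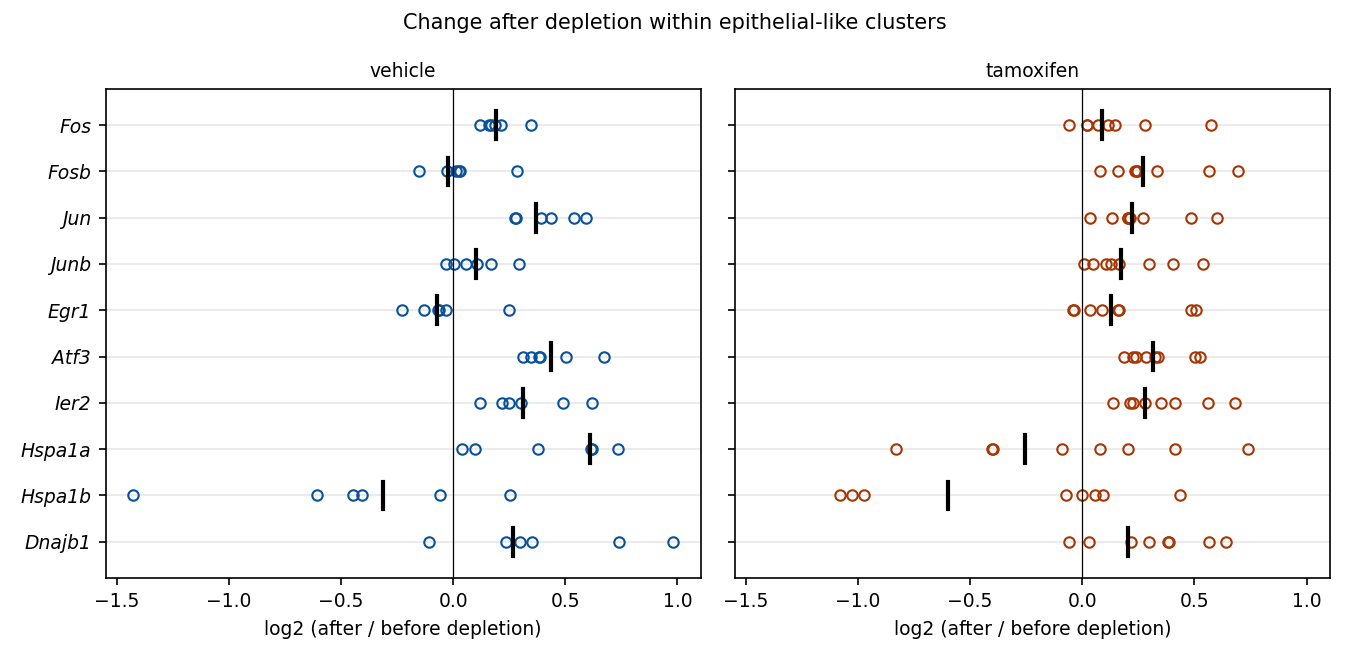
Log2 ratio after over before depletion of each member within single epithelial-like clusters (circles) and over all epithelial-like cells (black bars), for vehicle (left, 6 clusters) and tamoxifen (right, 8 clusters). Jun, Atf3 and Ier2 lie above 0 in every cluster shown, while Hspa1a in tamoxifen spans -0.83 to 0.74.

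The level differed between epithelial-like clusters within each library (clusters with at least 50 cells there). The immediate early sum was highest in a cluster of 521 cells led by Fmo2, Aox3 and Tmeff2, at 13981 CPM in tamoxifen before depletion (51 cells) and 15250 CPM after it (443 cells). The other clusters held 5766 to 11806 CPM and 8378 to 13304 CPM in those libraries. The vehicle libraries had only 5 and 22 cells of this cluster. A cluster of 2501 cells led by S100a6, Clu and S100a14 held 6116, 6924, 5766 and 8492 CPM, the lowest sum in every library except tamoxifen after depletion, where a cluster led by the proliferation genes Cdc20, Birc5 and Mki67 held 8378 CPM. A cluster of 1059 cells led by the alveolar type I genes Rtkn2, Ager and Hopx held 8003, 10354, 11806 and 13304 CPM. A cluster of 3312 cells led by the alveolar type II genes Sftpc, Scd1 and Cbr2 held 7345, 8070, 7695 and 8629 CPM.

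The heat shock members had another order of clusters. A cluster led by Gkn2, Ly6d and Sftpb had the highest heat shock sum in the 3 libraries where it held at least 50 cells, at 782 CPM in vehicle after depletion and 1096 and 870 CPM in tamoxifen before and after. The lowest sums were in the cluster led by Sftpc, Scd1 and Cbr2 in tamoxifen (113 and 159 CPM) and in one led by Dlk1 and Dcpp1 in vehicle (156 and 169 CPM, beside 160 and 171 CPM in the former). In the cluster led by S100a6, which was low in the immediate early members, the heat shock sum was 506, 550, 501 and 382 CPM.

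The same comparison in other classes did not give 1 direction. In endothelial-like cells (158, 167, 154 and 123 cells) the immediate early sum was 9424, 11555, 10172 and 13099 CPM, log2 ratios after over before of 0.29 and 0.36. In fibroblast-like cells (119, 195, 83 and 115 cells) it was 11035, 10371, 12582 and 11560 CPM, with ratios of -0.09 and -0.12. Endothelial-like cells that remained after depletion thus stood above those before, and fibroblast-like cells slightly below. The difference between the classes was not tested. The endothelial-like cells after depletion are those that a column against CD31 had not held back. By the size rule Hspa1a was higher after depletion in endothelial-like cells in tamoxifen, at 35.5 and 79.1 CPM (log2 1.14), where 5.88% of 9307 genes met the rule. It rested on 64 and 71 UMIs and was 0.79 without the 3 highest cells. No other member met it after over before depletion in these classes, where in vehicle 7.11% of endothelial-like and 8.84% of fibroblast-like genes did, and in tamoxifen 6.29% of fibroblast-like genes.

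Depth moved with depletion, and so did some markers of other classes in epithelial-like cells. Epithelial-like cells had medians of 24666 UMIs before and 18142 after depletion in vehicle, and of 28788 and 16741 in tamoxifen. Endothelial-like cells had medians of 13978, 8373, 10111 and 7293 UMIs, and fibroblast-like cells of 22521, 11444, 17912 and 9305. The median mitochondrial share of epithelial-like cells was 4.17%, 2.98%, 3.90% and 3.77%. In epithelial-like cells all 8 macrophage markers had a UMI before depletion and all but Ms4a7 after it, and their summed level was 83.6, 29.4, 63.2 and 28.5 CPM. All 7 neutrophil markers had a UMI in each library, at 152, 103, 274 and 204 CPM. The alveolar macrophage markers summed to 162, 116, 232 and 114 CPM and the NK cell markers to 1.30, 0.315, 0.902 and 0.313 CPM. The T cell and dendritic cell lists were also lower after depletion in both treatments. Some lists moved less: the plasma cell markers summed to 423, 401, 418 and 424 CPM and the monocyte markers to 414, 327, 393 and 382 CPM. The endothelial and fibroblast lists were higher after depletion in both treatments. The pan-leukocyte gene Ptprc (CD45) was at 12.0, 0.255, 13.1 and 0.404 CPM. Whether these transcripts came from other cells or from the epithelial-like cells was not tested. The part of depth and of RNA from other cells in the shifts above was not tested either.

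Between the treatments the immediate early sum in epithelial-like cells was somewhat higher in the libraries labelled tamoxifen. The log2 ratios of tamoxifen over vehicle were 0.17 before and 0.17 after depletion. Within clusters with at least 50 cells on both sides the ratio was positive in 4 of 5 before depletion (-0.09 to 0.58, median 0.07). After depletion it was positive in 6 of 8 (-0.06 to 0.38, median 0.20). Cells were spread over the clusters differently in vehicle and tamoxifen, and the part of this in the class ratios was not tested. Over the class the heat shock sum had ratios of 0.03 and -0.35. The size rule was met by 0 of 10 members in both comparisons, beside 1.96% of 9354 genes before and 1.85% of 9129 genes after depletion. Junb, Egr1 and Ier2 had the largest ratios that were alike in both pairs. Egr1 had 0.26 before and 0.46 after depletion, Junb 0.28 and 0.35, and Ier2 0.32 and 0.28. Within clusters after depletion, these 3 genes were higher in tamoxifen in 8 of 8 clusters, and before depletion each was higher in 4 of 5. The medians over clusters were 0.09 before and 0.52 after depletion for Egr1, 0.17 and 0.38 for Junb, and 0.47 and 0.39 for Ier2. In endothelial-like and fibroblast-like cells after depletion 0 of 10 members met the size rule between treatments, beside 5.25% and 4.91% of genes. Atf3 had ratios of -0.02 and -0.14, where the first turned positive with TMM or median-of-ratios factors. Hspa1a was higher in tamoxifen before depletion (0.40) and lower after it (-0.47). Hspa1b had 0.04 and -0.25, and Dnajb1 -0.23 and -0.30. The pairs come from the same suspensions and do not replicate each other.

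In the classes present only before depletion, few members differed between treatments by size. In neutrophil-like cells Hspa1a was at 58.9 CPM in vehicle and 13.8 CPM in tamoxifen, and Hspa1b at 74.1 and 2.05 CPM, log2 ratios of -2.02 and -4.62, where 3.89% of 7618 genes met the rule. In vehicle, 101 of the 155 Hspa1a UMIs lay in 1 of 664 cells, and 100 of the 195 Hspa1b UMIs in 1 cell. Without the 3 highest cells of each library Hspa1a was at 9.16 and 7.87 CPM and Hspa1b at 9.54 and 0.516 CPM, the last from 1 UMI. The Hspa1a difference between these libraries therefore rested on a few neutrophil-like cells. Monocyte-like cells (148 and 113 cells) had Egr1 at 219 and 80.3 CPM (log2 -1.44, interval -1.80 to -1.11) and Hspa1b at 26.9 and 1.75 CPM, the second from 2 UMIs (log2 -3.34, interval -7.04 to -2.00). The rule was met there by 4.82% of 8090 genes, and without the 3 highest cells the Egr1 ratio was -1.26. B cell-like cells had Jun at 150 and 315 CPM (log2 1.06, interval 0.86 to 1.28), where 5.61% of 8684 genes met the rule. In tamoxifen 116 and 92 of the 367 Jun UMIs lay in 2 of 208 B cell-like cells, and without the 3 highest cells of each library Jun was at 116 and 145 CPM and no longer 2-fold apart (log2 0.32). In no other class did a member meet it between treatments before depletion, with shares of all genes of 0.716% in macrophage-like, 1.01% in alveolar macrophage-like, 2.87% in dendritic cell-like and 1.94% in T cell-like cells, and of 4.17% in endothelial-like, 5.49% in fibroblast-like and 15.7% in NK cell-like cells.

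Other genes of the same responses were followed in epithelial-like cells from fixed lists. Of 24 other immediate early genes, 23 reached 10 CPM in each comparison. None was 2-fold apart after over before depletion, where their median ratios were -0.08 in vehicle and 0.04 in tamoxifen, beside 0.19 and 0.22 for the 7 members. Nr4a2, an orphan nuclear receptor of the early response, was the only one 2-fold apart between treatments. It was at 35.5, 29.98, 13.9 and 10.4 CPM, log2 ratios of tamoxifen over vehicle of -1.29 and -1.44. Dusp1, a phosphatase that ends MAPK signalling, was at 501, 429, 565 and 548 CPM, and Zfp36, which promotes decay of short-lived transcripts, at 388, 348, 318 and 332 CPM. Both were lower after than before depletion in vehicle, unlike Atf3 and Jun, but Zfp36 was higher in tamoxifen. Of the 23 genes, 11 had positive and 12 negative ratios after over before depletion in vehicle, and 14 and 9 in tamoxifen. Among those higher in both treatments were Nfkbia (0.52 and 0.25) and Ier3 (0.41 and 0.27). Rhob and Klf2 were higher in tamoxifen in both pairs, Rhob at 199, 185, 291 and 279 CPM and Klf2 at 303, 357, 506 and 478 CPM.

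Of 15 other heat shock genes, all reached 10 CPM and 0 were 2-fold apart in any of the 4 comparisons. After over before depletion 10 of 15 had positive ratios in vehicle and 8 of 15 in tamoxifen, with medians of 0.18 and 0.00. Between treatments 14 of 15 were negative before depletion and 13 of 15 after it, with medians of -0.12 and -0.27. Hspb1, a small heat shock protein, was at 113, 177, 91.8 and 90.1 CPM, and Hsph1, an Hsp110 nucleotide exchange factor, at 28.2, 29.5, 18.1 and 16.5 CPM. Hspb1 was thus highest in vehicle after depletion, as Hspa1a and Dnajb1 were. The constitutive chaperone gene Hspa8 was at 1211, 1377, 1210 and 1258 CPM. In the list of 10 endoplasmic reticulum stress genes 0 were 2-fold apart, with median ratios of 0.06, 0.04, -0.13 and -0.07 in the 4 comparisons (after over before in vehicle and tamoxifen, then tamoxifen over vehicle before and after). In the list of 8 MAPK feedback genes 0 were 2-fold apart either, with medians of -0.02, 0.02, 0.14 and 0.11.

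Genes most like the members were taken across 26 groups, each 1 class of 1 library with at least 100 cells, among 13344 genes. With the mean log2 level of the 7 immediate early members, the 5 highest Pearson correlations included those of Rcan1 (0.96), Rhob (0.95), Mcfd2 (0.93) and Cdc42ep4 (0.90). Rcan1 ranged from 8.11 to 106 CPM and Rhob from 20.5 to 557 CPM. With the 3 heat shock members they were those of Porcn (0.92), Tnfrsf12a (0.88), Flywch2 (0.87), Trip6 (0.87) and Spaar (0.86). The 2 member groups correlated at 0.80 with each other over the same 26 groups. These correlations are descriptions, since groups share libraries and classes.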

How the data were processed

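Per the labels' protocols, libraries were made with 10x Genomics 3′ chemistry (version 3). The authors deposited raw UMI counts per gene and cell barcode, without normalization. The matrices were written by Cell Ranger 7.0.1 per the file headers, whereas the submitters' processing notes name Cell Ranger 7.2.0 and the build mm10. The annotation, strand and use of intronic reads are not given in the sources used here. Sequencing depth ran from 92644997 to 144994771 UMIs per library.

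From these counts, barcodes with under 200 genes or over 20% mitochondrial UMIs were dropped. Scrublet's automatic threshold in scanpy 1.11.5 called 188, 1, 1 and 0 doublets, so it had not worked in 3 libraries, and cells scoring over 0.25 were removed (225, 120, 116 and 153). Cells were clustered on 2000 variable genes, with the stress lists left out, 40 principal components and 15 neighbours (Leiden, igraph 0.11.9, resolution 1). Clusters were named where 3 markers were each detected in 10% of their cells, with no other class leading among its top 10 genes above 10 CPM, a floor chosen after the clusters were seen. A cluster of 204 cells stayed unnamed.

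UMIs were summed per class and library and scaled to CPM. Ratios are log2 with a pseudocount of 1 CPM. A gene counted as apart at 10 CPM or more in either library and at least 2-fold, a rule of size that was tested on simulated data. With 1 library per group no p-values were computed, and a model of treatment and depletion without their interaction was not fitted. Intervals are 95% intervals (exact Poisson, exact conditional binomial without the pseudocount, Clopper-Pearson), for counting error only. Shares of cells and co-detection were taken after thinning to 2000 UMIs. All members are named, as are list genes past the size rule or with large ratios in both pairs. Dusp1, Zfp36, Nfkbia, Ier3, Klf2, Hspa8 and the cluster examples were chosen after their values were seen. Alternatives included other scalings (edgeR 4.0.16), pseudocounts, filters, class definitions and thinning depths. The members and lists were chosen with earlier results of these data known. An allele shared by all groups and 1 gene that the naming rule selected are not reported here.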

Additional observations from a re-analysis of the deposited data

Results flagged for a closer look

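These results had opposite directions under the same contrast in 2 settings. None of the differences was tested, since each setting holds 1 library per group, and several are close to 0. In epithelial-like cells the log2 ratio after over before depletion was 0.61 in vehicle and -0.26 in tamoxifen for Hspa1a, -0.0235 and 0.27 for Fosb, and -0.0712 and 0.13 for Egr1. The ratio of tamoxifen over vehicle in the same class was 0.40 before and -0.47 after depletion for Hspa1a, and -0.25 and 0.04 for Fosb. In endothelial-like cells Egr1 had -0.18 in vehicle and 0.17 in tamoxifen after over before depletion, and -0.11 before and 0.24 after depletion for tamoxifen over vehicle. In fibroblast-like cells Atf3 had 0.33 in vehicle and -0.19 in tamoxifen after over before depletion. There the ratio of tamoxifen over vehicle was 0.62 before and -0.27 after depletion for Hspa1a, and 0.67 and -0.55 for Hspa1b.

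For Hspa1a in epithelial-like cells the opposite signs after depletion were lost without the 3 highest cells of each library, where the tamoxifen ratio was 0.05. In tamoxifen 3 cells are a larger share of the cells before than after depletion, and equal shares were not left out. The opposite signs between treatments remained without the 3 highest cells, at 0.13 before and -0.39 after depletion. For Hspa1b in fibroblast-like cells the second ratio was -0.17 without them.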

How the results depend on the processing

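No replicate block was fitted, since the labels give no replicate numbers. The ratio after over before depletion compares portions of the same suspension, 1 pair per treatment, and no replicate could be left out of a group of 1 library. The count of members 2-fold apart in epithelial-like cells was 0 in 57 of 60 settings run. It was 1 in vehicle after over before depletion by the mean over cells (Hspa1a, higher) and with a fold of 1.5, and 1 in tamoxifen with a fold of 1.5 (Hspa1b, lower). Over all genes the counts in the 4 comparisons (after over before in vehicle and tamoxifen, tamoxifen over vehicle before and after) were 55, 52, 183 and 169. They were 288, 288, 379 and 335 with no CPM minimum and 235, 94, 521 and 506 with a fold of 1.5, and 174 and 143 in the first 2 with a gate on each cell's markers. Of 40 member ratios, 33 kept their sign under 15 alternatives. The others were Fosb and Egr1 in vehicle (to 0.08 and 0.09), Hspa1b in vehicle (to 0.22), Hspa1a in tamoxifen (to 0.05), and Atf3, Hspa1b and Dnajb1 between treatments before depletion (to 0.09, -0.14 and 0.225). Leaving out the 3 highest cells, leaving out the cluster of 1059 cells unnamed at another floor and adding the unnamed cluster of 204 cells were alternatives chosen after seeing the data. Shares of cells moved with the thinning depth in all 80 settings. Depth limits statements on Hspa1a and Hspa1b in lymphoid, monocyte-like and neutrophil-like cells, where few UMIs were counted.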
